A study of Mus musculus with 12 samples.

Results

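The 34 genes described here are widely used astrocyte markers, chosen by name from a list of 35 gene symbols. Plpp3 and Ppap2b are 2 symbols of the same gene, which the count files list as Ppap2b, so 34 of the 24421 counted genes are members. All 34 had at least 45 counts in every library and all 34 passed the filter on low counts, which left 14564 genes in the test. Astrocytes are the glial cells that clear glutamate from synapses, buffer potassium and water and couple to each other through gap junctions. They supply neurons with lipids and, as has been proposed, with lactate. In the hippocampus their fine processes wrap excitatory synapses, and some astrocyte mRNAs are translated in those processes and in the endfeet that line blood vessels.

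Sequencing covered polyribosomal RNA, the RNA that pellets with ribosomes through a sucrose cushion, taken from hippocampi of C57/Bl6 mice aged 6 weeks. There were 6 libraries of the group labelled fear case and 6 of the group labelled control, all of the same strain and with no genetic change named. The protocol describes individually housed mice placed in an unfamiliar context and collected 15 min after the start of that exposure, in the same words for both groups. The labels do not say how the handling of the control mice differed or if any mouse received a shock. They also do not say that each library came from its own mouse, so p-values measure the spread between these libraries, which may be technical. No RNA from before the cushion was analysed here, so a difference in level cannot be parted into transcript amount and ribosome association. Fewer astrocytes and less RNA per astrocyte cannot be told apart in whole tissue either.

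Gene counts ran from 18.6 to 44.2 M per library, and fear case 6 was the deepest, ahead of 24.2 M in the next. Fear case 6 also stood apart in the share of counts on Rn45s, at 12.5% against 4.55% to 7.98% in the others. Rn45s is the gene of the 45S ribosomal RNA precursor, and its counts do not tell the precursor from the mature ribosomal RNAs. Choroid plexus epithelium is a secretory tissue in the ventricles next to the hippocampus. Its markers summed to less in fear case 1 to 5 than in any control, but not in fear case 6. Their summed level was 107 to 584 CPM in fear case 1 to 5 and 2202 CPM in fear case 6, against 1076 to 2931 CPM in the controls (CPM is a count per M counts of its library, with library size scaled by TMM).

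No difference in astrocyte genes between fear case and control was detected at this collection time. Of the 34, 0 were called in either direction by edgeR's quasi-likelihood test at an adjusted p under 0.05, where 0.103% of all tested genes were called, 0.0481% as higher and 0.0549% as lower. With DESeq2 and with limma-voom 0 were called as well, and 1 member had an unadjusted p under 0.05 in each of the 3 tests. That member was lower in fear case with edgeR, where 7.14% of all genes had an unadjusted p under 0.05 (2.62% higher and 4.52% lower). The median log2 fold change of the members was -0.03, beside -0.0046 over all genes tested, with 12 positive and 22 negative values among the members and 48.6% positive and 51.4% negative ones among all genes. No member had all 6 fear case libraries above, or all 6 below, the controls, as 0.268% and 0.33% of all genes did. By the same test Fos, a gene that neurons switch on when active, was called higher, at 20.9 ± 7.21 CPM in fear case and 4.38 ± 1.60 CPM in control (SD, n = 6 each; edgeR log2 fold change 2.25, SE 0.23, adjusted p = 1.1e-05).

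The fit of all 12 libraries, without covariates, bounds how large a difference between these libraries could have been missed. The 95% confidence interval of every member, not adjusted for the number of genes, lay inside a 2-fold change in either direction, as it did for 89.3% of all genes. For 30 of the 34 it lay inside a 1.5-fold change, compared with 74.8% of all genes. The 4 members with wider intervals were Ezr, Slc7a10, Cldn10 and Agt. Of these, Slc7a10, Cldn10 and Agt averaged 4.19 to 7.64 CPM in either group. The bounds hold for that fit alone. When some 1 library was left out, 31 of the 34 log2 fold changes moved by over 1.5 times. Ezr stood at -0.64 without fear case 6, and Gja1 at 0.49 with the choroid plexus covariate described below. Intervals in the other settings were not counted.

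**Figure D1:**
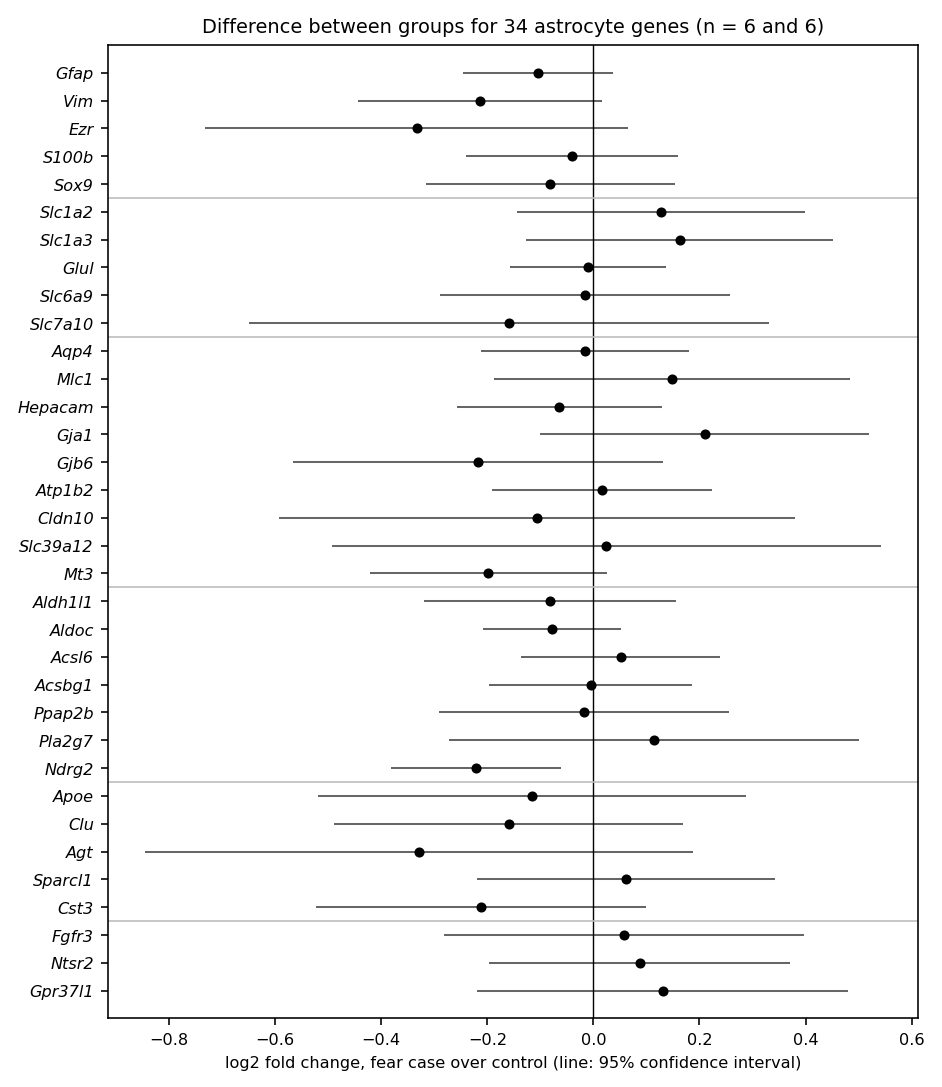
Log2 fold change of fear case over control (x axis) for the 34 astrocyte genes, grouped by role from cytoskeleton at the top to receptors at the bottom, with 95% confidence intervals from 6 libraries per group. All intervals but that of Ndrg2 cross 0, and the values run from -0.33 for Ezr to 0.21 for Gja1.

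Of the identity and cytoskeleton genes 0 of 5 were called, and their log2 fold changes ran from -0.33 to -0.04, though S100b stood at 0.0048 without control 1 and Ezr and Sox9 stood at 0.23 and 0.21 with the choroid plexus covariate described below. Gfap, the intermediate filament protein by which astrocytes are usually stained, stood at 139, 139, 165, 138, 129.7 and 133 CPM in fear case 1 to 6. In control 1 to 6 it stood at 164, 150.3, 143, 158, 143 and 147 CPM. So 5 fear case libraries lay below all controls and fear case 3 lay above them all, and the log2 fold change was -0.10 (SE 0.07, adjusted p = 0.782). Gfap varied little between libraries. Its biological coefficient of variation, the spread between libraries beyond counting error, was 0.0879, at percentile 7.13 of all tested genes. S100b, a calcium-binding protein, had the smallest difference of the 5, with a log2 fold change of -0.04 (SE 0.10). Sox9, the transcription factor that marks astrocyte nuclei, had a median of 59.9 CPM in fear case (51.2 to 81.4) and 68.2 CPM in control (55.0 to 81.7), and the groups overlapped nearly throughout. Vim, the other intermediate filament gene of the list, averaged 21.2 ± 3.14 CPM in fear case and 24.6 ± 3.43 CPM in control (log2 fold change -0.21, SE 0.11, adjusted p = 0.718).

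Ezr, which encodes ezrin, a linker of membrane and actin in fine astrocyte processes, was the member whose result rested on a single library. It stood at 14.6, 13.7, 17.2, 11.5, 15.2 and 33.8 CPM in fear case 1 to 6. In control 1 to 6 it stood at 29.3, 22.8, 23.2, 18.8, 22.0 and 18.8 CPM. Thus fear case 1 to 5 all lay below every control, while fear case 6 lay above every control. With all libraries the log2 fold change was -0.33 (SE 0.19, adjusted p = 0.747). Without fear case 6 it was -0.64 (SE 0.12, adjusted p = 0.00869), which passed, and with control 1 left out as well it was -0.55 (SE 0.12, adjusted p = 0.0182). In those 2 settings 0.873% and 0.747% of all tested genes were called. Choroid plexus markers were low in the same 5 libraries: their mean log2 level over 17 genes was -0.24 to 2.76 in fear case 1 to 5 and 4.24 in fear case 6, against 3.64 to 4.61 in control. With that mean as a covariate, the log2 fold change of Ezr was 0.23 (SE 0.18, adjusted p = 0.794). As the covariate nearly follows the groups, this fit does not separate the 2, and the part of choroid plexus RNA in the Ezr levels was not tested. Exons of Ezr overlap those of Sytl3 on the opposite strand, and the labels do not state a strand setting for the counting.

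Glutamate and glycine handling gave 0 called of 5. Slc1a2 encodes GLT-1, the main glutamate transporter of the forebrain, and was the member with the highest CPM, at 899.6, 1118, 1155, 999, 861 and 1738 CPM in fear case 1 to 6. In control 1 to 6 it had 1317, 942, 988, 892, 978 and 1082 CPM. Fear case 6 and control 1 were the highest, the remaining 10 libraries overlapped, and the log2 fold change was 0.13 (SE 0.13, adjusted p = 0.868). Without fear case 6 it was -0.04. Slc1a3, the related transporter GLAST, ranged from 107 to 185 CPM in fear case and from 95.1 to 170.2 CPM in control, with the same 2 libraries on top (log2 fold change 0.16, SE 0.14). Glul, the glutamine synthetase that converts the glutamate taken up, had a median of 389.7 CPM in fear case (359 to 438) and 377 CPM in control (376 to 457). Its log2 fold change of -0.01 (SE 0.07) had an interval from -0.16 to 0.14, among the tightest of the list. The glycine transporter gene Slc6a9 and the neutral amino acid transporter gene Slc7a10 had log2 fold changes of -0.02 and -0.16, at mean levels of 6.79 to 10.4 CPM.

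Genes of the endfoot, of gap junctions and of ion and metal handling also gave 0 called, of 9. Aqp4, the water channel of the endfoot, averaged 69.3 ± 12.4 CPM in fear case and 70.1 ± 3.16 CPM in control, with a log2 fold change of -0.02 (SE 0.09, interval -0.21 to 0.18). Its spread was wider in fear case, where fear case 1 was lowest at 50.5 CPM and fear case 6 highest at 88.4 CPM. Mlc1 and Hepacam, partners in one membrane complex at the endfoot, had log2 fold changes of 0.15 and -0.06. The connexin genes lay on opposite sides of 0. Gja1 (connexin 43) averaged 51.5 ± 12.8 CPM in fear case and 44.6 ± 11.8 CPM in control (log2 fold change 0.21, SE 0.15, adjusted p = 0.797), and its log2 fold change was 0.07 without fear case 6, 0.36 without control 1 and 0.49 with the choroid plexus covariate. Gjb6 (connexin 30) averaged 6.57 ± 1.16 CPM in fear case and 7.67 ± 1.87 CPM in control (log2 fold change -0.22, SE 0.17, adjusted p = 0.819), and neither differed beyond the spread between libraries. Mt3, a metallothionein that binds zinc, stood at 135.5 to 167 CPM in fear case 1 to 5 and at 87.3 CPM in fear case 6, against 143 to 167 CPM in control (log2 fold change -0.20, SE 0.11, adjusted p = 0.738). It was -0.09 without fear case 6 and -0.46 with the choroid plexus covariate. Atp1b2, a subunit of the sodium pump, Slc39a12, a zinc transporter gene, and Cldn10, a claudin gene, had log2 fold changes of 0.02, 0.02 and -0.11.

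Among the 7 genes of lipid and energy metabolism was the member with the lowest p. Ndrg2, a cytosolic protein of the NDRG family, stood at 125, 159, 116, 125, 133 and 111 CPM in fear case 1 to 6. In control 1 to 6 it stood at 164, 150.0, 148, 149, 138 and 149 CPM. Fear case 2 lay among the controls and the other 5 lay below all of them. The log2 fold change of -0.22 (SE 0.08, unadjusted p = 0.00905) had an adjusted p of 0.473 over all genes, and so was not called. Without fear case 2 its adjusted p was 0.172, the lowest for this gene in any setting tried. Together with Gfap and Ezr, 3 members had at least 5 fear case libraries below all controls, a position that 1.84% of all genes held, and 0 had 5 above, as 1.11% did. Aldoc, the brain form of the glycolytic enzyme aldolase, averaged 284 ± 20.2 CPM in fear case and 300.2 ± 10.5 CPM in control (log2 fold change -0.08, SE 0.06), and its variation of 0.0847 between libraries was the lowest of the list. Aldh1l1, a folate enzyme used as a general astrocyte marker, averaged 12.6 ± 1.83 CPM in fear case and 13.4 ± 1.17 CPM in control (log2 fold change -0.08, SE 0.11). The fatty acyl-CoA synthetase genes Acsl6 and Acsbg1 stood at 0.05 and -0.0047, the lipid phosphatase gene Ppap2b at -0.02 and the phospholipase gene Pla2g7 at 0.11.

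Of the 5 genes for secreted proteins 0 were called, and libraries of the same group differed widely. Apoe, the main lipid carrier made by astrocytes, stood at 283, 364, 405, 315, 329 and 582 CPM in fear case 1 to 6. In control 1 to 6 it stood at 746, 316, 461, 366, 309.6 and 273 CPM. The medians, 347 CPM in fear case and 341 CPM in control, were close, and the log2 fold change of -0.12 had an SE of 0.19 (adjusted p = 0.934). Its direction rested on control 1: it was 0.14 without that library, and 0.28 with the choroid plexus covariate. Clu, the chaperone and lipid carrier clusterin, had a median of 164 CPM in fear case (143 to 236) and 167 CPM in control (140.4 to 315). Cst3, a protease inhibitor, had 142 CPM in fear case (115 to 187) and 157 CPM in control (125 to 262). Control 1 was the highest library for Apoe, Clu and Cst3 alike. Sparcl1, the synapse-promoting protein hevin, had a log2 fold change of 0.06 (SE 0.14), and Agt, angiotensinogen, one of -0.33 (SE 0.25, adjusted p = 0.815) at 4.19 ± 1.30 CPM in fear case and 5.31 ± 2.12 CPM in control. The receptor genes Fgfr3, Ntsr2 and Gpr37l1, for fibroblast growth factor, neurotensin and an orphan ligand, had log2 fold changes of 0.06, 0.09 and 0.13, each with an SE of 0.14 to 0.17.

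**Figure D2:**
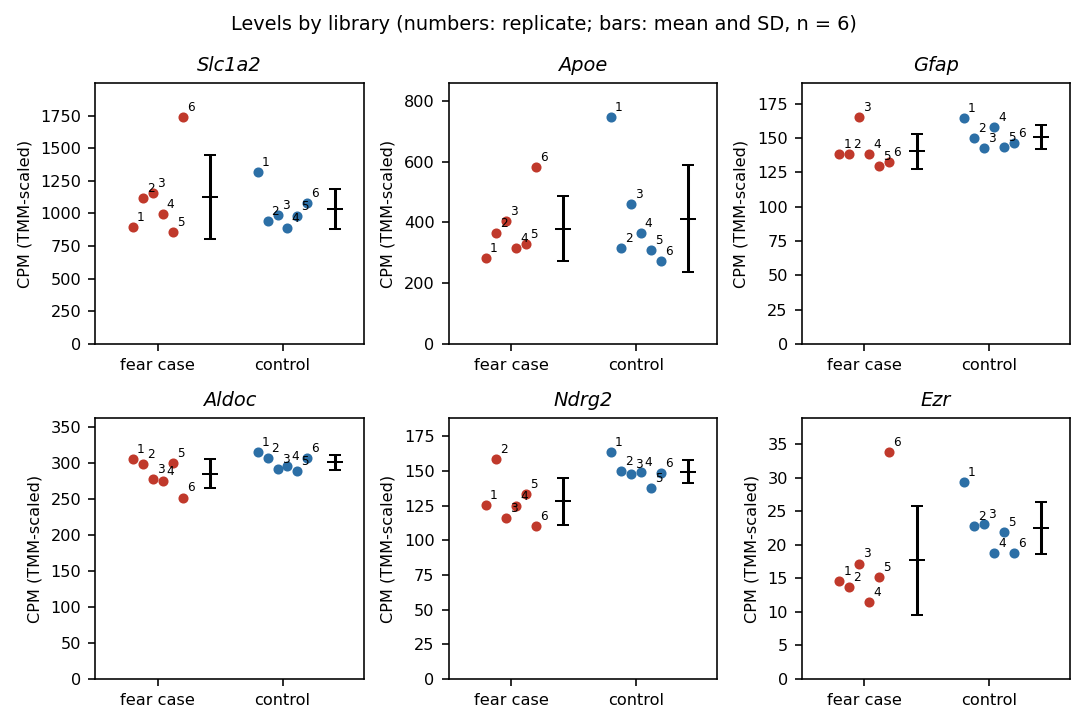
TMM-scaled CPM (y axis, from 0) of 6 astrocyte genes in each fear case (red) and control (blue) library, numbered by replicate, with the mean and SD of the 6 libraries in black. Slc1a2 and Apoe are highest in fear case 6 and control 1, Gfap and Aldoc vary little, Ndrg2 is low in 5 fear case libraries, and Ezr is low in fear case 1 to 5 and high in fear case 6.

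Levels between genes were compared per kilobase of exon, from the GENCODE vM21 annotation on GRCm38, the assembly of the mm10 build. Exons were joined over all transcripts of a gene, which can exceed the length of the mRNA present. The annotation used for counting is not given, so the order of genes is approximate. The most abundant by this measure was Sparcl1, at 202 CPM per kb in fear case and 193 CPM per kb in control, close to Apoe at 178 and 193 CPM per kb. The difference between them was smaller than the SD of either gene, at least 40.1 CPM per kb in each group. Mt3 followed at 131 CPM per kb in fear case and 150.3 CPM per kb in control, then Cst3 at 116 and 135 CPM per kb, Glul at 118 and 119 CPM per kb, and Aldoc at 87.1 and 92.0 CPM per kb. Slc1a2, first by counts, came seventh at 85.9 and 78.7 CPM per kb, since its exons sum to 13133 bases. Gfap stood lower at 33.3 CPM per kb in fear case and 35.8 CPM per kb in control, and the lowest were Cldn10 and Slc6a9, both between 2.00 and 2.25 CPM per kb in either group.

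Libraries differed more than groups did. The summed level of the 34 genes was 3809 to 4588 CPM in fear case 1 to 5 and 5737 CPM in fear case 6, against 5788 CPM in control 1 and 3973 to 4517 CPM in control 2 to 6. In 22 of the 34 genes the highest library was control 1 (15 genes) or fear case 6 (7 genes), and in 15 genes these were the 2 highest. The means of the sum were 4432 ± 722 CPM in fear case and 4447 ± 683 CPM in control (SD, n = 6 each). Both libraries were also high in choroid plexus markers, at 2202 CPM in fear case 6 and 2931 CPM in control 1, the most of any library. Microglia markers were highest in control 1 at 153 CPM, while fear case 6 at 115 CPM lay within the 68.0 to 116 CPM of the rest. The summed markers of neurons did not share the pattern, at 12354 to 13081 CPM in fear case and 11811 to 12763 CPM in control. Of the neuronal markers with the highest CPM, Syt1 did share it, at 1735 CPM in fear case 6 and 1491 CPM in control 1. Snap25 and Camk2a were highest in other libraries. The part of other cell types and of depth in these library levels was not tested.

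**Figure D3:**
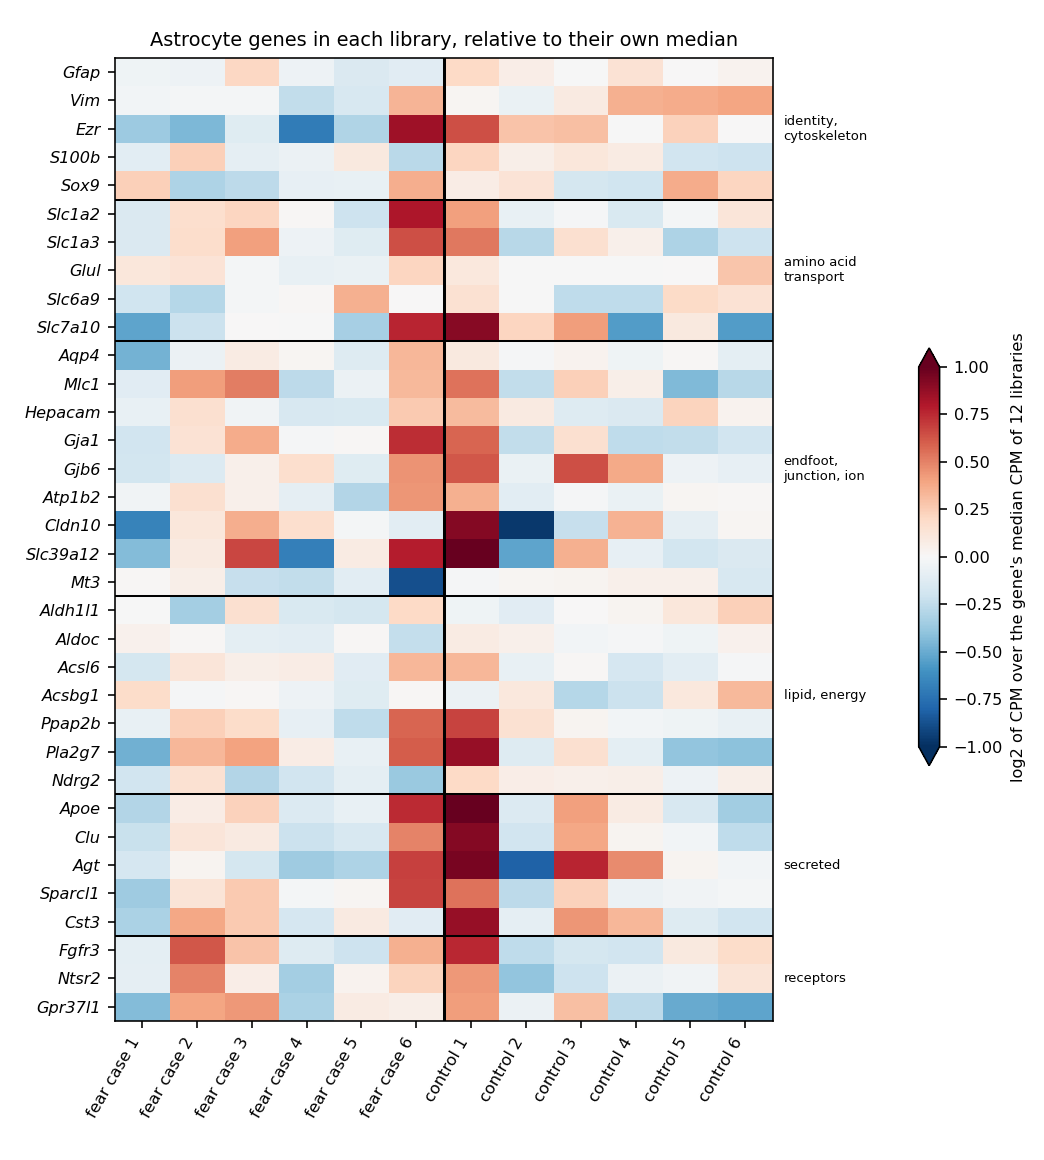
Each of the 34 astrocyte genes (rows, grouped by role) in each library (columns, fear case left, control right), coloured by the log2 of its CPM over its own median of the 12 libraries. Control 1 and fear case 6 are red for most transporters, junction and secreted proteins, while Gfap, Glul and Aldoc stay near white and Mt3 is blue in fear case 6.

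Secreted and membrane-spanning proteins are made at the endoplasmic reticulum, cytosolic and nuclear ones on free ribosomes. After the values were seen, the members were sorted by textbook knowledge into 22 that encode secreted or membrane-spanning proteins and 11 that encode cytosolic or nuclear ones, with Acsl6 left out. This is a description with no test, and genes outside the list were not sorted, so it does not show a trait particular to astrocyte genes. In fear case 6 the 22 genes lay at a median of 1.39 times their own 12-library median, with 20 of 22 above it, and in control 1 at 1.52 times, with 22 of 22 above it. The 11 genes for cytosolic or nuclear proteins lay at 1.01 times in fear case 6, with 6 of 11 above, and at 1.06 times in control 1, with 8 of 11 above. In fear case 1, by contrast, 0 of the 22 lay above their median, at 0.873 times, while the 11 were at 0.996 times. The lowest library for S100b, Mt3, Aldoc and Ndrg2, which are of the cytosolic kind, was fear case 6. Ezr, of the cytosolic kind too, was high in both libraries.

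**Figure D4:**
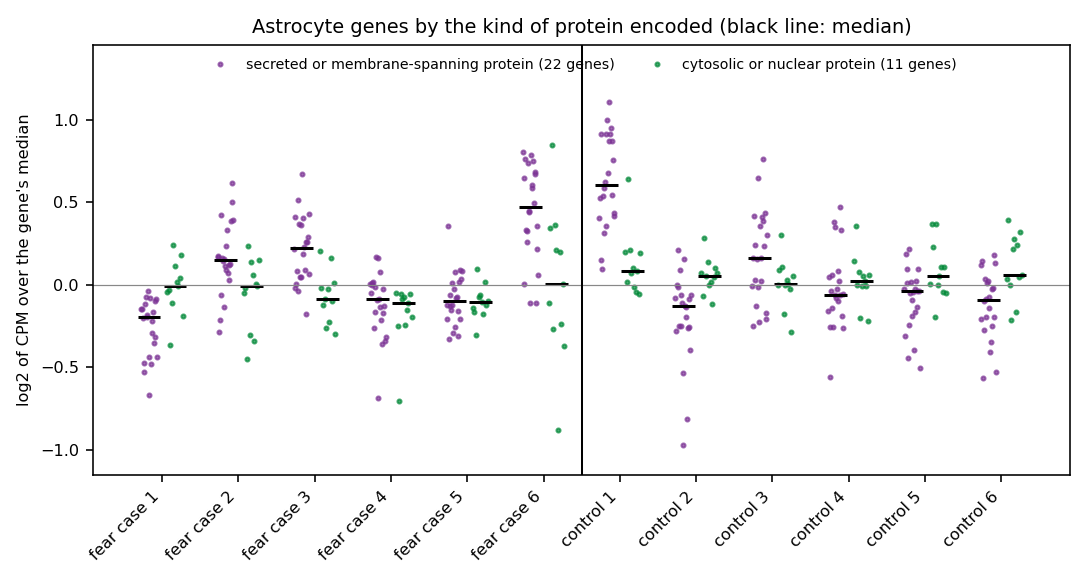
Log2 of CPM over the gene's own 12-library median (y axis) for 22 genes of secreted or membrane-spanning proteins (purple) and 11 of cytosolic or nuclear proteins (green) in each library, with medians as black lines. The purple genes stand at 1.39 times their median in fear case 6 and 1.52 times in control 1, and the green ones at 1.01 and 1.06 times.

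The spread between libraries was also wider for the 22 genes. The median coefficient of variation within a group was 22.7% in fear case and 26.5% in control for the 22 genes, and 13.2% in fear case and 8.74% in control for the 11. Without fear case 6 and control 1, the libraries that prompted the split, these were 15.2% in fear case and 15.8% in control for the 22 genes, and 9.52% in fear case and 9.18% in control for the 11, so the gap between the kinds narrowed in both groups. These percentages include counting error, and the members with the lowest counts, Agt and Cldn10, were among the 22. Biological coefficients of variation, the spread beyond counting error, had a median of 0.188 for the 22 genes (0.115 to 0.296) and 0.118 for the 11 (0.0847 to 0.230). The part of expression level in this gap was not tested. Over all 34 members the median was 0.165, beside 0.135 over all genes tested, and 12 of the 34 lay below that value. The median log2 fold change was 0.00 for the 22 genes, with 11 positive and 11 negative, and -0.08 for the 11, of which 0 were positive, though Ezr, Sox9, Glul, Aldh1l1 and Acsbg1 were above 0 with the choroid plexus covariate, and S100b, Glul and Acsbg1 also when certain single libraries were left out. Of either kind 0 were called.

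The upstream sequences of Apoe, Aldoc and Gfap are shown because Apoe varied most between libraries among members above 100 CPM, and Aldoc and Gfap varied least. Of the 34 genes, 29 matched RefSeq's promoter table (GRCm38.p6). Only the 250 bases before each annotated start were searched on both strands for the nuclear factor I motif TTGGCA, the SOX core ACAATG and the STAT core TTCNNNGAA, factors known from astrocyte gene regulation, which do not overlap in the windows shown. Capitals mark the matches. For genes with several starts the window farthest upstream is printed, which is chr7:19699189-19699438 on the minus strand for Apoe, chr11:78322823-78323072 on the plus strand for Aldoc and chr11:102897201-102897450 on the minus strand for Gfap. The Gfap window lies inside the span that GENCODE gives the gene, which has transcripts starting farther upstream. The Aldoc window lies partly inside the GENCODE span of Aldoc, which begins at chr11:78322968.
Apoe: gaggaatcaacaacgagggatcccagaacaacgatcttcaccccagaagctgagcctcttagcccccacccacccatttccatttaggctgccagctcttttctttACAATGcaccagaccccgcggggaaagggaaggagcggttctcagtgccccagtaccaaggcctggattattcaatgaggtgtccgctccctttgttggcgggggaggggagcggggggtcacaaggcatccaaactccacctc
Aldoc: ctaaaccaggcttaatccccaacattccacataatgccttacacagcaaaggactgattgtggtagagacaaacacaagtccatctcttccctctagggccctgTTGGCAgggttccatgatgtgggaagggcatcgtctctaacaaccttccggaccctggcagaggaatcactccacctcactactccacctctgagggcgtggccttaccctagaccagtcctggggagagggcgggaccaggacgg
Gfap: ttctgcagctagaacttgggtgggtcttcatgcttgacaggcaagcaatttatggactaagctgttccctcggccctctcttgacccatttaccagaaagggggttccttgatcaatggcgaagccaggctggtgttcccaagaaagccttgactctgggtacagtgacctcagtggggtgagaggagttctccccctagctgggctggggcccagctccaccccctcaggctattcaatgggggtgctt
The Apoe window held 1 SOX core, starting 144 bases before the start, the Aldoc window 1 nuclear factor I motif, starting 146 bases before it, and the Gfap window none of the 3. Among windows not printed, Apoe had a nuclear factor I motif starting 57 bases before its start. Aldoc had STAT cores starting 124 and 83 bases before its start in a window not printed. Over all their windows, 4 of 29 members (13.8%) had the nuclear factor I motif, as did 14.1% of the 27025 genes of the table. The SOX core was found in 1 of 29 (3.45%) and in 12.2% of all genes, and the STAT core in 6 of 29 (20.7%) and in 8.13% of all genes. A gene with more annotated starts had more windows searched. Numbers of windows were not compared between the members and all genes, so the shares may not be on a like basis. These matches are letters in a window and carry no statement on binding.

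Of 54 tested further astrocyte genes 0 were called, with a median log2 fold change of 0.02, and 3 had an unadjusted p under 0.05. These were Id3, an inhibitor of transcription factors, at -0.32 (SE 0.10, adjusted p = 0.374), the sphingosine phosphate receptor gene S1pr1 at 0.37 (SE 0.14, adjusted p = 0.554) and the glutamine transporter gene Slc38a3 at -0.51 (SE 0.21, adjusted p = 0.613). Slc38a3 stood at 4.69 to 7.85 CPM in fear case 1 to 5 and 11.6 CPM in fear case 6, against 6.11 to 13.2 CPM in control, and without fear case 6 it was called lower (log2 fold change -0.76, SE 0.18, adjusted p = 0.0468), but with control 1 left out as well it was not called.

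Reactive astrocyte genes, which astrocytes raise after injury or inflammation, gave 0 called of 29 tested, and 9 of the 38 listed, among them Lcn2, Steap4 and Timp1, were too low to test. Their median log2 fold change was -0.10, with 9 positive and 20 negative values up to 0.20 for the matrix protein gene Tnc. At 1 CPM or more, the lowest p was that of the sphingosine kinase gene Sphk1 at -0.67 (SE 0.35, adjusted p = 0.728). Next were the heat shock protein gene Hspb1 at -0.48 (SE 0.26, adjusted p = 0.734) and the adhesion receptor gene Cd44 at -0.31 (SE 0.17, adjusted p = 0.742). The 1 member with an unadjusted p under 0.05 was Lgals3, at -1.32 (SE 0.44, adjusted p = 0.435), which averaged 0.629 CPM. Lgals3 and Tnc were named after their values were seen.

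Genes of glycogen, glycolysis and lactate transport, a proposed route by which astrocytes feed neurons, gave 0 called of 24. Their median log2 fold change was 0.0032, in whole tissue, where levels are not assigned to a cell type. The lactate transporter gene Slc16a1 averaged 19.8 ± 3.44 CPM in fear case and 17.1 ± 2.04 CPM in control (log2 fold change 0.21, SE 0.12, adjusted p = 0.742). The glycogen branching enzyme gene Gbe1 stood at -0.40 (SE 0.17, adjusted p = 0.613) and the lactate dehydrogenase gene Ldhb at -0.14 (SE 0.07, adjusted p = 0.693), and these 2 had an unadjusted p under 0.05. Markers of the radial glia-like stem cells of the dentate gyrus, which share many genes with astrocytes, gave 0 called of 12 tested (median -0.03), with Hopx at -0.14 (SE 0.09, adjusted p = 0.769). Sterol and lipid supply genes gave 0 called of 24 (median -0.05), and 1 had an unadjusted p under 0.05, the mitochondrial fatty acid importer gene Cpt1a at -0.34 (SE 0.14, adjusted p = 0.613). Across these 5 lists DESeq2 and limma-voom called 0 as well.

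RNA of astrocytes and of the cells around them was present in every library. All 34 astrocyte markers, all 16 neuronal, 15 oligodendrocyte lineage and 14 microglial markers were detected in all 12 libraries. Ependyma and motile cilia markers, from the ciliated lining of the ventricles, summed to 29.6 to 37.4 CPM in fear case and 45.5 to 58.9 CPM in control, with no overlap. Of the 10 tested, 9 had a negative log2 fold change and 1, Ccdc153, a positive value of 0.12 (SE 0.23). Of the 10, 2 had all 6 fear case libraries below all controls, as 0.33% of all genes did. The ciliary gene Tekt1 was called lower (log2 fold change -1.02, SE 0.20, edgeR adjusted p = 0.0483). That call is at the edge of the threshold: it held in 7 of 20 other settings and was lost in 13, among them limma-voom and the choroid plexus covariate (adjusted p 0.076 and 0.623). Fear case 6 lay with its group there, at 37.4 CPM, although its choroid plexus markers did not. Of the choroid plexus markers 12 of 17 were detected in every library, and Folr1, Slc4a5, Otx2, Aqp1 and Lbp were at 0 in some. By edgeR 0 of the 17 were called (lowest adjusted p 0.151), though all 17 had a negative log2 fold change and an unadjusted p under 0.05. Leptomeningeal markers summed to 168 to 328 CPM in fear case and 244 to 364 CPM in control.

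**Figure D5:**
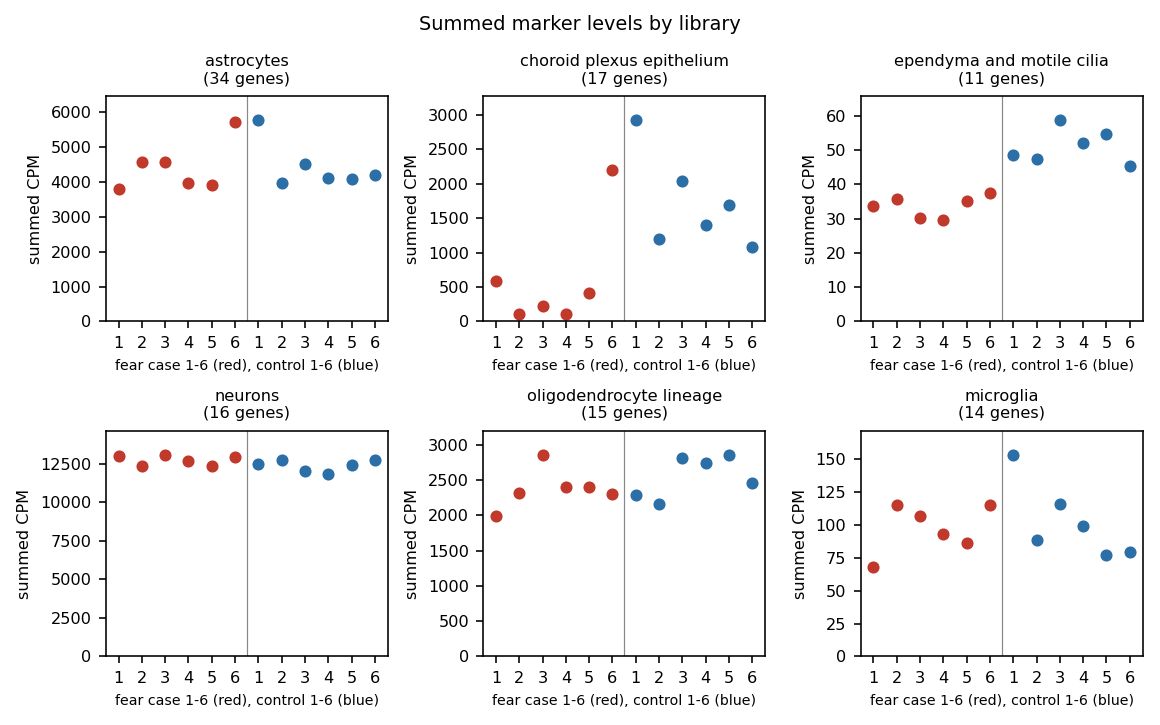
Summed TMM-scaled CPM (y axis, from 0) of marker genes of 6 cell types in each fear case (red) and control (blue) library. Astrocyte sums are highest in fear case 6 and control 1 at 5737 and 5788 CPM, choroid plexus sums are low in fear case 1 to 5, and ependymal sums do not overlap between the groups.

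In GRCm38, Slc1a2 spans chr2:102658659-102790784 (plus strand) and Gfap spans chr11:102887336-102900912 (minus strand). Apoe spans chr7:19696109-19699188, Ndrg2 chr14:51905271-51914158 and Ezr chr17:6738041-6782784, each transcribed from the minus strand. Counts cover the exons of all transcripts of a gene, so isoforms are not told apart. For 29 of the 34 members no exon overlaps an exon of another counted gene, and besides Ezr the exceptions were Glul, Slc6a9, Slc7a10 and Pla2g7.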

How the data were processed

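Polyribosomal RNA of mouse hippocampus was measured in 12 libraries. Per the labels' protocols, ribosomes of cleared homogenate were pelleted in 4 h through sucrose (1 molar), and SMARTer libraries of the pelleted RNA were read as 40 bp pairs. The deposited files hold raw read counts per gene symbol, without normalization. HTSeq, Bowtie, TopHat, cutadapt and the build mm10 are named in the submitters' processing notes; which versions, annotation and strand setting were used is not given in the sources here. Summary lines were left out, among them reads on no gene (25.5% to 33.3% of reads assigned to a gene, to none or to several). A further 67.8 to 115 M alignments per library were not unique, so genes with near copies are undercounted.

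Libraries were grouped by the sample group label. The list members and all lists and motifs were chosen with earlier results of these data known. Counts were tested with edgeR 4.0.16 in R 4.3.3: filterByExpr (minimum count 10, total 15), TMM, glmQLFit and glmQLFTest without covariates, Benjamini-Hochberg over 14564 genes, calls under 0.05. The SE is the log2 fold change over the square root of F, and intervals use its t distribution. Named genes were all members, and up to 3 per other list with at least 1 CPM and the lowest p, besides called genes and Fos. Neuronal markers were named by highest CPM. A simulation of 14564 genes held 50 genes altered by each of 1.5, 2, 3 and 4 times. The test found 64%, 92%, 90% and 100% of these sets, and it also called 8 genes that had not been altered. Each set alone was larger than the 15 genes called in the data. The members had a median biological coefficient of variation of 0.165, beside 0.135 over all genes. The rates may therefore be too high for the members, whose own recovery was not tested. The median library had 21.6 M gene counts. No pair of libraries of a group agreed within counting noise (chi-square per degree of freedom at least 8.09 over 30 pairs). Alternatives were other scalings, no filter, DESeq2 1.42.0, limma-voom (limma 3.58.1), a replicate block, a choroid plexus covariate and leaving out each library. Leaving out control 1 and fear case 6 together was added after the data were seen, as was the split by kind of protein.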

Additional observations from a re-analysis of the deposited data

Results flagged for a closer look

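In a group of 6 libraries, a value was listed here when its gap to the nearest other library was a larger part of the group's range than Dixon's 95% critical value. Of 84 groups tested 16 met this, and chance flags about 1 in 20 groups. Libraries are shared between genes, so the values are not independent of each other.

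Fear case 6 stood above its group for Vim at 27.0 CPM (others 18.0 to 21.1), for Ezr at 33.8 CPM (others 11.5 to 17.2) and for Slc1a2 at 1738 CPM (others 861 to 1155). It did so as well for Slc7a10 at 11.4 CPM (others 4.68 to 6.75), for Agt at 6.76 CPM (others 3.27 to 4.28) and for the summed choroid plexus markers at 2202 CPM (others 107 to 584). Fear case 3 stood above its group for Gfap at 165 CPM (others 129.7 to 139).

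Control 1 stood above its group for Atp1b2 at 159.6 CPM (others 116 to 126), Acsl6 at 103 CPM (others 72.7 to 82.3) and Ppap2b at 89.4 CPM (others 53.2 to 62.2). It also did so for Pla2g7 at 60.6 CPM (others up to 37.0), Fgfr3 at 28.2 CPM (others 14.0 to 19.0) and the summed astrocyte genes at 5788 CPM (others 3973 to 4517). Control 6 stood above its group for Glul at 457 CPM (others 376 to 405) and below it for Mt3 at 143 CPM (others 159 to 167). The summed leptomeningeal markers were low in control 2 at 244 CPM (others 340.3 to 364).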

How the results depend on the processing

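Of all tested genes 15 were called, and 33 with total count scaling, 37 with no filter, 60 with DESeq2, 6 with the choroid plexus covariate, 9 to 128 when 1 library was left out and 109 without control 1 and fear case 6. Of the astrocyte members 0 were called, except 1 (Ezr) without control 1 and fear case 6, and 0 to 1 when 1 library was left out, the 1 again being Ezr, without fear case 6. Of the other lists 0 were called, and 0 to 1 when 1 library was left out. With a replicate block, 18 of all genes, 0 members and 0 genes of the other lists were called. Same-numbered libraries did not deviate together (correlations -0.17 to 0.047, best with the own number in 2 of 6). No pairing by number was seen, though these correlations over all genes cannot exclude a weak one. The members' median log2 fold change was -0.09 to 0.03 with 1 library left out, 0.09 with the covariate and -0.07 with total count scaling, which moved the median of all genes to -0.04. The split of the members was 25 positive and 9 negative with the covariate, and 21 and 13 without control 1.

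Of the 34 log2 fold changes 12 kept their sign in all 20 settings and 22 did not, and the cause was not tested. In size, 31 of the 34 moved by over 1.5 times when some 1 library was left out (all but Gfap, Vim and Ndrg2), and 31 did so with the covariate. With the covariate, the values that changed sign were Ezr 0.23, Sox9 0.21, Glul 0.053, Slc6a9 0.077, Slc7a10 0.27, Aqp4 0.069, Hepacam 0.030, Aldh1l1 0.068, Acsbg1 0.00014, Ppap2b 0.18, Apoe 0.28, Clu 0.12 and Agt 0.10. With total count scaling they were Atp1b2 -0.025 and Slc39a12 -0.027, and Acsbg1 was 0.0079 with limma-voom and 0.0051 with the replicate block. Without control 1 and fear case 6 they were S100b 0.05, Slc6a9 0.010, Atp1b2 -0.0054, Cldn10 0.15 and Ppap2b 0.00078. With 1 library left out, values that crossed 0 ranged from -0.056 to 0.067 for Acsbg1, -0.012 to 0.13 for Acsl6, -0.28 to 0.14 for Apoe, -0.10 to 0.057 for Aqp4, -0.078 to 0.091 for Atp1b2, -0.25 to 0.13 for Cldn10, -0.27 to 0.040 for Clu, -0.051 to 0.23 for Fgfr3 and -0.045 to 0.036 for Glul. They ranged from -0.011 to 0.19 for Ntsr2, -0.13 to 0.12 for Ppap2b, -0.10 to 0.0048 for S100b, -0.038 to 0.21 for Slc1a2, -0.14 to 0.27 for Slc39a12, -0.10 to 0.034 for Slc6a9, -0.38 to 0.045 for Slc7a10 and -0.071 to 0.17 for Sparcl1. The lowest count of a member in any library was 45, which bounds what depth alone can resolve for the low genes.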
